A study of Mus musculus with 6 samples.

Results

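The receptors through which retinal neurons respond to GABA, glycine and glutamate were examined in retinae of newborn mice that lacked Meg2, the protein tyrosine phosphatase encoded by Ptpn9, and of wild-type mice. Members were chosen by gene symbol, among genes with an array cluster of their own, and with earlier results of these data known. They comprised the subunit genes of GABA-A and rho receptors (16 genes), GABA-B receptors (2), glycine receptors (5), ionotropic glutamate receptors (16) and metabotropic glutamate receptors (6), 45 genes among 19938 that had an array cluster of their own. Other subunits of these families were not analysed here. A cluster is the set of probes that reads a transcript, and each gene was represented by its cluster with the highest mean. The series held 3 Meg2 knockout and 3 Meg2 wild-type samples, all P0 retina on the C57BL/6NTac background and with no treatment. Per the labels both retinae of a pup were combined for an array, and no source used here gives the allele or the deleted part of Ptpn9. In whole retina, fewer cells of a type and less RNA per cell cannot be told apart.

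GABA-A, rho and glycine receptors are pentameric chloride channels, and their subunit makeup sets how fast they open and close and where they sit on the cell. GABA-B receptors and the metabotropic glutamate receptors couple to G proteins. AMPA, kainate and NMDA receptors are tetrameric cation channels that carry or shape fast excitation. In the newborn rodent retina ganglion, amacrine, horizontal and cone cells have been born, whereas most rods, bipolar cells and Muller glia have not yet formed. Synapses are sparse at that age, and waves of spontaneous activity spread through ganglion and amacrine cells. Early GABA and glycine can depolarise immature neurons, because their internal chloride is high.

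Several features of the arrays preceded the comparison. Ptpn9 read 9.31, 9.58 and 9.28 on the log2 scale in knockout replicates 1, 2 and 3 and 10.05, 9.93 and 9.94 in the wild type, so every knockout array lay below every wild-type array. Replicate 1 of both genotypes carried Xist, the RNA of the inactive X chromosome, without signal of Y-linked genes, and replicate 3 the opposite. Replicate 2 of both genotypes carried Xist at 12.54 together with intermediate signal of the Y-linked genes Kdm5d, Eif2s3y and Uty (7.18 to 7.87), which does not match RNA of 1 pup per array. Among retinal markers, 9 of 9 ganglion cell and 11 of 12 amacrine and horizontal cell genes lay above the background level described next. So did 6 of 6 photoreceptor genes and 7 of 7 progenitor and Muller glia genes. These lists named 10, 12, 8 and 8 genes in that order, and only genes with a cluster of their own were counted. That level was passed by 16506 of the 23410 tested clusters, so passing it does not by itself bear out the tissue label. Genes of other tissues were also read, with 7 of 8 lens genes and 4 of 6 pigment epithelium genes above that level. Of 3 liver genes, Alb averaged 5.45, while Apoa1 and Ttr, at 7.67 and 7.34, were above it. With 3 arrays per genotype, precision was limited by their number.

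The first question was which subunits gave a signal above background at birth. The background level was set from 1205 clusters of olfactory and vomeronasal receptor genes, which serve in the nose. Their median log2 signal was 5.35 and their 95th percentile, 7.13, was taken as the level. Of the 45 subunit genes, 35 lay above it on average over the 6 arrays, and 23 lay above 8.51, the median of all 23410 tested clusters. Over all tested clusters 16506 lay above 7.13. Signal was highest for Gabbr1, Gabbr2, Gabra3, Grik5, Grik3 and Glra2. The 10 genes not above background were Grin2a, Gabrb1, Gabrp, Gabrr3, Glra1, Gabrg1, Grik1, Glra4, Glra3 and Gabra6. Above the level but no brighter than Apoa1 were Gabra4, Gabrr2, Grin2c and Grin3b (7.35 to 7.46). Just inside the level stood Gabra4 at 7.35, and just outside it Grin2a at 7.09 and Gabrb1 at 7.05. Brightness also depends on probe sequence, so the order of genes in signal is not an order of transcript abundance, and a signal not above background is not a proof of absence.

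**Figure D1:**
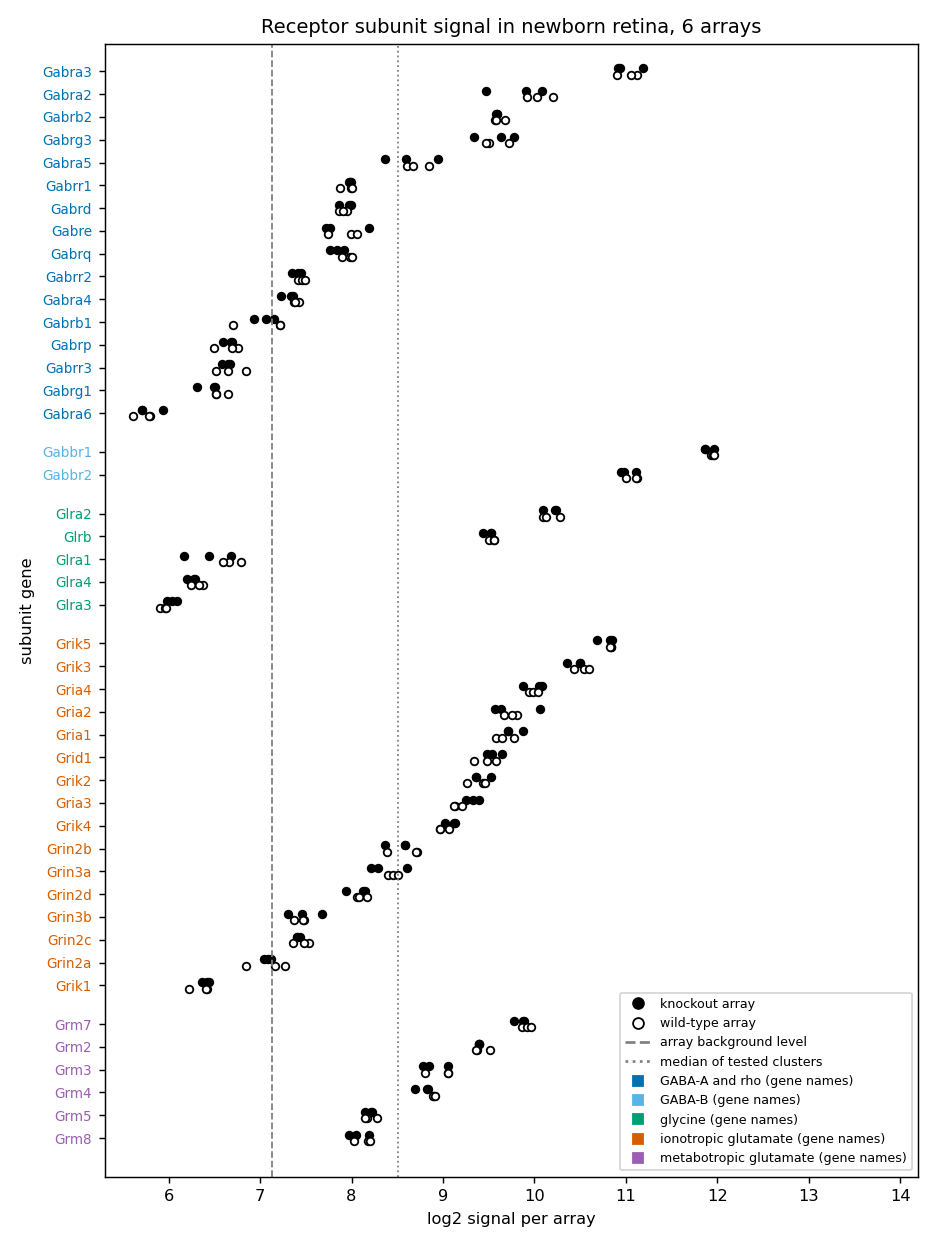
Log2 signal (horizontal axis) of the 45 receptor subunit genes on each of the 3 knockout (filled) and 3 wild-type arrays (open), grouped by receptor class and ordered by mean signal; the dashed line marks the background level of 7.13 and the dotted line the median of tested clusters, 8.51. Means ran from 5.76 for Gabra6 to 11.92 for Gabbr1, and for most genes the filled and open points overlapped.

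The start windows of these genes, from 250 bases before to 50 after a RefSeq transcript start on GRCm38.p6, were compared by their number of CpG dinucleotides, since CpG-rich starts are typical of broadly active genes. Windows were found for 34 members. Those above background (27 genes) held a median of 17 CpGs and those not above background (7 genes) a median of 3, counting the richest start of each gene. Of the former 88.9% exceeded the median of all genes, 8, and of the latter 14.3%. The same split was seen over all measured genes, with 84.1% of 11243 above background and 20% of 4320 not above it, so it was not a trait of receptor genes. The windows printed here show the range, with each CpG in capitals and every sequence 5′ to 3′ on the strand of its gene. Grik3 and Gabbr2, bright genes with 50 and 46 CpGs, are set beside Gabra6 and Gabrg1, dim genes with 2 and 3, and beside Gabra3, which was bright with 0 CpGs.

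Grik3, chr4:125490446-125490745, plus strand: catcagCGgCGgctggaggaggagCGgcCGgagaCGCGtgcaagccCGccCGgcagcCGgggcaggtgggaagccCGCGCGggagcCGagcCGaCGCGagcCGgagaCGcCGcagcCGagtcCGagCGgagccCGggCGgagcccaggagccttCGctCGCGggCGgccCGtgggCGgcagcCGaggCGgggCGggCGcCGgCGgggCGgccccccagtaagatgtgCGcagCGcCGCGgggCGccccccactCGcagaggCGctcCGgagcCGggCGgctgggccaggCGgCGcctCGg
Gabbr2, chr4:46991665-46991964, minus strand: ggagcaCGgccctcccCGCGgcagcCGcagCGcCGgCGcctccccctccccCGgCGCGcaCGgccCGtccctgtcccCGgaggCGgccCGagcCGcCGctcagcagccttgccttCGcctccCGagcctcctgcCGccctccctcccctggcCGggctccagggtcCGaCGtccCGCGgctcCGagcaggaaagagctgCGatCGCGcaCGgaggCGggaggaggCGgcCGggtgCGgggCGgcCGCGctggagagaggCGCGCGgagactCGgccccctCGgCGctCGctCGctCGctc
Gabra3, chrX:72656870-72657169, minus strand: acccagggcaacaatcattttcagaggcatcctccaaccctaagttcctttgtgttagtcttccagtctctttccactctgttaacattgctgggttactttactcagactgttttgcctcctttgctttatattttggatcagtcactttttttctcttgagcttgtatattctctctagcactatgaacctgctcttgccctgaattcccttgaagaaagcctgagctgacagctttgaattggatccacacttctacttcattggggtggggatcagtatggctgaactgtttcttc
Gabra6, chr11:42321023-42321322, minus strand: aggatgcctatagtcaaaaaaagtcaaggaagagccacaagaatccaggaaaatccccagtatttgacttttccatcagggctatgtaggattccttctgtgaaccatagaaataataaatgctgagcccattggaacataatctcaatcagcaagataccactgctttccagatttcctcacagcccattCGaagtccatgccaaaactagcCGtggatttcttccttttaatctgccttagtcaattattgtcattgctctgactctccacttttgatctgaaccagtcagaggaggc
Gabrg1, chr5:70842568-70842867, minus strand: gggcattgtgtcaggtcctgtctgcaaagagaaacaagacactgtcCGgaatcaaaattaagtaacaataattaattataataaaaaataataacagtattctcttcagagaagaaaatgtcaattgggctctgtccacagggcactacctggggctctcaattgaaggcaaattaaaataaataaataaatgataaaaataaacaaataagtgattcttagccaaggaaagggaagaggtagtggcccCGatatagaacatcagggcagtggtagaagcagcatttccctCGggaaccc

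Gabra3 was thus an exception to the split, as were Gabrr2 and Grin3b, above background with 2 and 3 CpGs. Gabrb1 was the converse, with 25 CpGs and a signal of 7.05. The windows follow annotated starts, and which start is used in newborn retina was not measured.

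**Figure D2:**
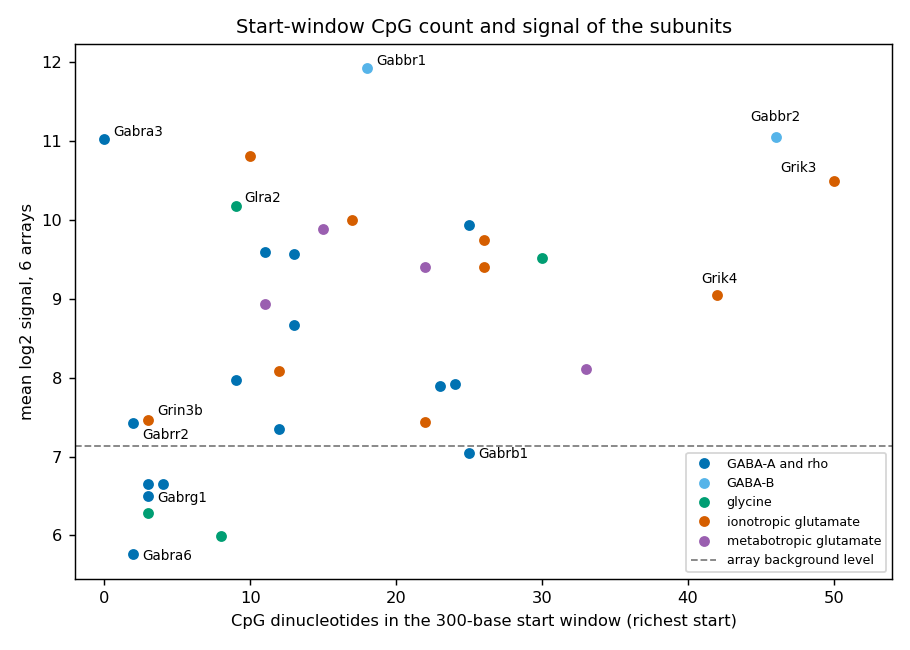
Mean log2 signal over the 6 arrays (vertical axis) against the number of CpG dinucleotides in the richest 300-base start window (horizontal axis) for the 34 subunit genes with a window; colours give the receptor class and the dashed line the background level of 7.13. The dim genes lie at few CpGs except Gabrb1 with 25, and Gabra3 lies high at 0.

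Among GABA-A alpha subunits, which with the beta subunit form the GABA site, Gabra3, Gabra2 and Gabra5 were above the median of tested clusters. Values are given in the order of replicates 1, 2 and 3. Gabra3 read 10.94, 11.18 and 10.91 in the knockout and 10.91, 11.13 and 11.06 in the wild type. Gabra2 read 9.47, 9.91 and 10.09 in the knockout and 9.92, 10.03 and 10.21 in the wild type. The lowest of these Gabra2 values was knockout replicate 1, and the groups overlapped in both genes. Gabra5, known for receptors outside synapses, read 8.60, 8.95 and 8.37 against 8.61, 8.85 and 8.67. Gabra4, close to the background level, read 7.36, 7.22 and 7.34 against 7.43, 7.37 and 7.38, so the knockout arrays all lay below the wild-type arrays. Gabra6, the alpha subunit of cerebellar granule cells, was the dimmest member at 5.79 ± 0.13 and 5.73 ± 0.10 (SD, n = 3).

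The beta subunit gene Gabrb2 read 9.59, 9.58 and 9.59 in the knockout and 9.57, 9.58 and 9.68 in the wild type. Its other clusters averaged 9.23 and 8.34 and differed by 0.075 and 0.078 between genotypes, against -0.021 for the brightest, with SEs of 0.068, 0.10 and 0.058 in that order, and the groups overlapped in each of the 3. Gabrb1 read 6.93, 7.06 and 7.15 against 6.70, 7.22 and 7.22, on either side of the background level within each genotype. Gabrg3, a gamma subunit of the kind that anchors receptors at synapses, read 9.63, 9.77 and 9.34 against 9.50, 9.72 and 9.47. Gabrg1, the gamma subunit common in glia, stayed below background at 6.50, 6.31 and 6.50 against 6.52, 6.65 and 6.52, with the knockout arrays all lowest.

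The remaining heteromeric subunits were near the background level. Gabrd, whose product serves extrasynaptic receptors with tonic current, read 7.86, 7.97 and 7.99 in the knockout and 7.95, 7.86 and 7.90 in the wild type. Gabre, on the X chromosome with 1 coding gene between it and Gabra3, read 7.77, 8.19 and 7.72 against 8.00, 8.06 and 7.74, highest on replicate 2 in both genotypes. Gabrq lay at 7.84 ± 0.075 and 7.96 ± 0.058 and Gabrp, a subunit of epithelia, at 6.66 ± 0.053 and 6.65 ± 0.13 (SD, n = 3). Gabrr1 read 7.97, 7.98 and 8.00 against 7.99, 8.00 and 7.87, and Gabrr2 7.41, 7.35 and 7.44 against 7.42, 7.46 and 7.49. Both were above background at an age when few bipolar cells exist, while Gabrr3 was not, at 6.63 ± 0.046 and 6.67 ± 0.17 (SD, n = 3). Of 6 bipolar marker genes, 4 were also above background.

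Both GABA-B genes stood at the top of the members. Gabbr1, which binds GABA, read 11.86, 11.96 and 11.86 in the knockout and 11.93, 11.95 and 11.96 in the wild type. Gabbr2, which carries the complex to the surface and activates the G protein, read 10.95, 11.11 and 10.99 against 11.00, 11.12 and 11.11. The groups overlapped in both genes.

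Glycine receptors divided into genes that were clearly read and genes that were not. Glra2, the alpha subunit known as the fetal form, read 10.23, 10.10 and 10.24 in the knockout and 10.10, 10.13 and 10.28 in the wild type. Glrb, the beta subunit that binds the scaffold protein gephyrin, read 9.43, 9.53 and 9.52 against 9.51, 9.56 and 9.56. Glra1, the subunit that dominates in the adult spinal cord, was not above background, at 6.68, 6.16 and 6.44 against 6.79, 6.66 and 6.59. Its lowest arrays were knockout replicates 2 and 3, and the groups overlapped through knockout replicate 1. Glra3 was also below the level, at 6.04, 5.99 and 6.09 against 5.90, 5.96 and 5.97, with every knockout array above every wild-type array. Glra4 averaged 6.29.

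All 4 AMPA receptor genes were above the median of tested clusters. Gria4 read 9.87, 10.09 and 10.04 in the knockout and 9.94, 9.98 and 10.04 in the wild type. Gria2, whose edited product makes the channel impermeable to calcium, read 9.57, 9.63 and 10.06 against 9.81, 9.67 and 9.76. Its spread came mostly from knockout replicate 3, the highest of the 6. Gria1 read 9.71, 9.71 and 9.87 against 9.58, 9.64 and 9.78, and Gria3, on the X chromosome, 9.33, 9.25 and 9.40 against 9.13, 9.12 and 9.21. In Gria3 the lowest knockout array was above the highest wild-type array.

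Of the 5 kainate receptor genes, 4 were above the median of tested clusters and Grik1 was below background. Grik5, which needs a partner subunit to form a channel, read 10.69, 10.85 and 10.82 in the knockout and 10.84, 10.84 and 10.83 in the wild type. Grik3 read 10.36, 10.50 and 10.50 against 10.43, 10.54 and 10.60. Grik2 and Grik4 averaged 9.40 and 9.05, and Grik1, a subunit used by cone OFF bipolar cells, averaged 6.38. Grid1, which binds cerebellins across the synapse and gates poorly with glutamate, read 9.53, 9.65 and 9.48 against 9.34, 9.58 and 9.48.

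NMDA receptor genes lay around or below the median of tested clusters. Grin2b, typical of immature synapses, read 8.37, 8.58 and 8.58 in the knockout and 8.38, 8.72 and 8.71 in the wild type. Its lowest value in each genotype was replicate 1. Grin3a, whose subunit lowers calcium flow through the channel, read 8.29, 8.61 and 8.22 against 8.40, 8.46 and 8.51. Grin2d, Grin3b and Grin2c averaged 8.09, 7.46 and 7.44. Grin2a, known to rise as synapses mature, averaged 7.09 and was not above background.

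All 6 metabotropic glutamate receptor genes were above background. Grm7, the low-affinity receptor of presynaptic terminals, read 9.77, 9.88 and 9.88 in the knockout and 9.87, 9.92 and 9.96 in the wild type. Grm4, of the same group, read 8.83, 8.69 and 8.84 against 8.90, 8.89 and 8.92, so no knockout array reached a wild-type array. Grm2 read 9.40, 9.39 and 9.39 against 9.38, 9.52 and 9.36. Grm3, also a group II receptor that lowers transmitter release, read 8.78, 9.06 and 8.84 against 8.81, 9.05 and 9.05. Grm5, which signals through phospholipase C, read 8.22, 8.21 and 8.14 against 8.16, 8.15 and 8.28, and Grm8 averaged 8.10.

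The second question was whether subunit signal differed between knockout and wild type. No member passed correction over the 23410 clusters in limma (lowest adjusted p = 0.9995, 0 of 45 called, beside 0% of all clusters). Ptpn9, the gene of the knockout, did not pass either (limma, adjusted p = 0.4365, or 0.2879 with replicate number as a block). A gene that did not pass was therefore not shown to be unchanged. At an unadjusted p under 0.05, 1 of 45 members was called, Gria3, or 2.22%, beside 3.43% of all tested clusters. With the replicate number as a block, 3 of 45 were called, or 6.67%, beside 8.81% of all clusters, and the lowest adjusted p of a member was 0.514 (limma). The arrays of the 2 genotypes were fully separated in 5 members, or 11.1%, beside 8.43% of all clusters. Each of these shares was near that of all clusters. Differences ran from -0.25 (Glra1) to 0.17 (Gria3) on the log2 scale, with 17 above 0 and 28 below and a median of -0.029 beside 0.0012 over all clusters. The 95% interval of every member lay inside a 1.5-fold change either way, the lowest bound being 0.677 of wild type and the highest 1.24. Each interval is for 1 gene taken alone, from the fit without the block, and the 45 do not hold jointly at 95%. They describe array signal and not the transcript, most of all near background. Ptpn9 itself, at a mean of 9.68, read 0.67 of wild type in the knockout.

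**Figure D3:**
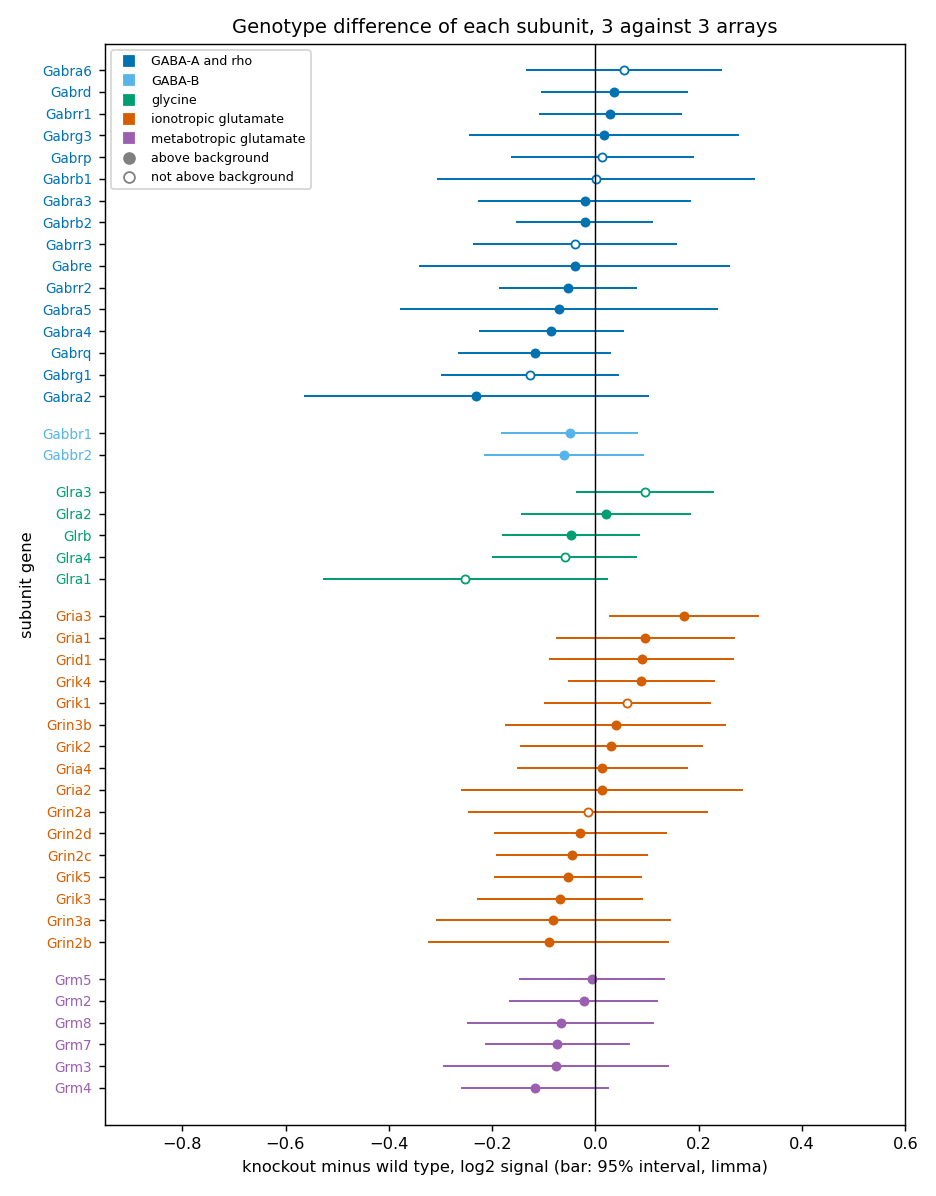
Difference between knockout and wild type in log2 signal (horizontal axis, point) with its 95% interval from limma (bar) for each of the 45 subunit genes, 3 against 3 arrays; open points mark genes not above background. The interval of Gria3 alone excludes 0, and all points lie between -0.25 and 0.17.

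Gria3 encodes an AMPA receptor subunit. Its signal averaged 9.32 ± 0.075 in knockout and 9.15 ± 0.050 in wild-type arrays (SD, n = 3), a difference of 0.17 (SE 0.063, 95% interval 0.027 to 0.32), or 1.13-fold. The difference was above 0 within each replicate number, by 0.20, 0.13 and 0.19. It did not pass correction without the block (limma, adjusted p = 0.9995) or with it (limma, adjusted p = 0.514). Without the replicate 2 arrays, which carried signal of both sexes, it was 0.19. It was 0.13 without knockout replicate 3 and 0.16 without wild-type replicate 1 or wild-type replicate 2, and its unadjusted call was lost in these 3 fits. Like Gria3, Glra2, Glra4, Gabra3, Gabre and Gabrq lie on the X chromosome, and their differences ran from -0.12 to 0.020.

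The block added Gabra2 and Glra1, both lower in the knockout within each of the 3 replicate numbers. Gabra2 differed by -0.23 (SE 0.15, or 0.074 with the block; limma, adjusted p = 0.52 with the block), by -0.45, -0.13 and -0.12 within the numbers. Without knockout replicate 1 its difference was -0.055, without knockout replicate 3 -0.36 and without wild-type replicate 3 -0.15. Glra1 differed by -0.25 (SE 0.12, or 0.081 with the block; limma, adjusted p = 0.52 with the block), by -0.11, -0.49 and -0.15 within the numbers. Without knockout replicate 2 the Glra1 difference was -0.12, without knockout replicate 1 it was -0.38, and without both replicate 2 arrays it was -0.13. Glra1 was also below the background level.

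Groups that did not overlap were found, beside Gria3, in Grm4 (difference -0.12, SE 0.062), Gabra4 (-0.085, SE 0.061), Gabrg1 (-0.13, SE 0.075) and Glra3 (0.096, SE 0.058). These 4 differences had 95% intervals that included 0, and with the block their lowest adjusted p was 0.569 (Grm4, limma, SE 0.050). Of the 4, Gabrg1 and Glra3 were not above background. Without knockout replicate 2 they were -0.069, -0.044, -0.062 and 0.12 in that order, so the first 3 were smaller by over 1.5 times. Without both replicate 2 arrays they were -0.076, -0.056, -0.017 and 0.13. Without wild-type replicate 2 Gabrg1 differed by -0.082.

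By receptor class, the 6 metabotropic genes all lay below 0, from -0.12 (Grm4) to -0.0065 (Grm5), as did both GABA-B genes at -0.050 (Gabbr1) and -0.061 (Gabbr2). The 4 AMPA genes lay above 0, from 0.013 for Gria2 and Gria4 to 0.17. NMDA genes lay below 0 in 5 of 6, with a range of -0.091 to 0.039. Of the 16 GABA-A and rho genes 6 lay above 0 and 10 below, and of the 5 kainate genes 3 above and 2 below. Median centring and cyclic loess turned the sign of 1 member, Gabrb1, whose difference was 0.0016. Leaving out 1 array turned more, and neither the AMPA nor the metabotropic genes kept a shared sign in every such fit. Both classes kept it without knockout replicate 1. Without knockout replicate 3 Gria2 differed by -0.14, Gria4 by -0.0086 and Grm5 by 0.017, and without wild-type replicate 2 Grm2 differed by 0.027. Over the members the median size of a difference was 0.053, below the median SE of a difference, 0.072. The shared signs therefore carry no call.

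The replicate number took a median of 56.8% of a member's spread over the 6 arrays and genotype 12.8%, beside 58.1% and 10.5% over all tested clusters. Replicate number has more levels than genotype and takes the larger share more often even where neither has an effect, so the shares describe the spread and rank neither. Members highest on both replicate 2 arrays were 6 of 45, or 13.3%, beside 11.6% of all clusters, and are named after their values were seen. Gabra5 and Gabrg3, adjacent in a cluster of GABA-A genes on chromosome 7, were both highest on replicate 2 in each genotype and had their lowest knockout value on replicate 3. Gabra3 and Gabre, close together on the X chromosome, were also highest on both replicate 2 arrays, as were Gabbr2 and Grid1. In both genotypes replicate 1 carried Xist without Y-linked signal, replicate 3 the opposite and replicate 2 both. Replicate number and sex therefore cannot be told apart. The 9 ganglion cell markers had mean deviations of 0.155 and 0.075 on the replicate 2 arrays of knockout and wild type, -0.090 and -0.055 on replicate 1, and -0.119 and 0.034 on replicate 3, and their part in the subunit values was not tested. Both replicate 1 arrays were the lowest pair in 10 members, or 22.2%, beside 12.3% of all clusters. Named after their values were seen, they were Grik3, Gria4, Grm7, Glrb, Grik2, Grm3, Grin2b, Grin2d, Gabrb1 and Grik1. Gabrb1 and Grik1 were not above background.

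**Figure D4:**
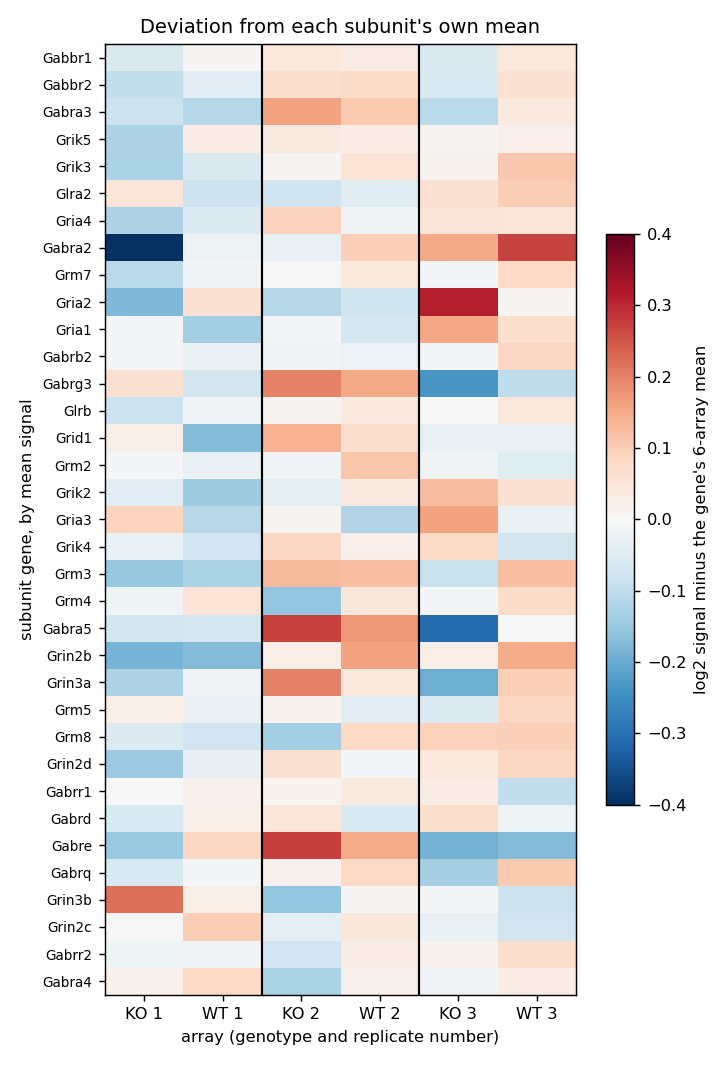
Deviation of each array (columns, knockout and wild type side by side within each replicate number) from the gene's own mean over 6 arrays, in log2 signal, for the 35 subunit genes above background, ordered by signal. Arrays of the same number share a direction in many rows, such as Gabra5 and Gabre, both highest on replicate 2.

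Genes that work with these receptors were read from a list ordered by role. All 24 measured genes (27 listed) of inhibitory synapses and of GABA and glycine supply were above background, and 0 were called at an unadjusted p under 0.05 with or without the block (limma), with 14 above 0 and 10 below and a median of 0.0097. The brightest were Gabarap, which moves GABA-A receptors to the surface, at 12.98, 13.09 and 13.04 against 13.02, 13.01 and 13.00, and Clptm1, which holds them back in the endoplasmic reticulum, at 12.34, 12.34 and 12.39 against 12.37, 12.36 and 12.38. The groups overlapped in both. Gad1 and Gad2, which make GABA, differed by 0.11 (SE 0.061; 0.067 without knockout replicate 3) and 0.073 (SE 0.068). Gad1 was the 1 gene of the list whose groups did not overlap (4.17%, beside 8.43% of all clusters), where the knockout arrays at 10.07, 10.04 and 10.18 lay above the wild-type arrays at 9.95, 10.03 and 9.98. The chloride importer gene Slc12a2 and the exporter gene Slc12a5, whose balance sets whether GABA depolarises, read 10.14 and 9.66 over the arrays and differed by -0.025 (SE 0.054) and -0.069 (SE 0.085). Gephyrin (Gphn), which anchors glycine and GABA-A receptors, differed by -0.048 (SE 0.057). Gad1, Gad2, the chloride transporters and Gphn were chosen after their values were seen.

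All 47 measured partners (50 listed) of glutamate receptors were above background, with 25 above 0 and 22 below and a median of 0.014. Of these 0 were called at an unadjusted p under 0.05 without the block and 7 with it (14.9%, beside 8.81% of all clusters), 3 higher and 4 lower, and none passed correction (limma, lowest adjusted p = 0.514 with the block). The brightest were Glul, glutamine synthetase, at 12.70, 12.72 and 12.88 against 12.67, 12.73 and 12.73, and the glial glutamate transporter gene Slc1a3 at 12.18, 12.10 and 12.34 against 12.15, 12.14 and 12.23. Knockout replicate 3 was highest in both, and the groups overlapped. The 7 called with the block are named after their values were seen, with the SE of the blocked fit. They were higher for Cacng3 (0.16, SE 0.047), an auxiliary subunit of AMPA receptors, Shisa6 (0.17, SE 0.053) and Cbln1 (0.14, SE 0.049). They were lower for the vesicular glutamate transporter genes Slc17a7 (-0.23, SE 0.064) and Slc17a8 (-0.12, SE 0.048), the AMPA receptor auxiliary gene Cacng8 (-0.12, SE 0.051) and Elfn1 (-0.13, SE 0.046). Slc17a7 read 9.56, 8.93 and 9.46 in the knockout and 9.75, 9.33 and 9.58 in the wild type, lowest on replicate 2 in both. In the unblocked fit, leaving out knockout replicate 2 gave -0.041 for Slc17a7 and -0.064 for Elfn1, and leaving out knockout replicate 1 gave -0.36 for Slc17a7. Without knockout replicate 3 Cbln1 differed by 0.077 and Shisa6 by 0.10. Without wild-type replicate 1 Cacng3 differed by 0.095, Shisa6 by 0.10 and Slc17a7 by -0.13, and without both replicate 2 arrays Slc17a7 differed by -0.15. Groups did not overlap in 5 of the 47 (10.6%, beside 8.43% of all clusters), all lower in the knockout: Cacng4, Cacng8, Dlg1, Nlgn3 and Slc17a8. The Cacng4 difference of -0.12 was -0.043 without knockout replicate 3.

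Marker lists of the cell types in and around the retina were read beside these values. The median difference was 0.0058 over amacrine and horizontal genes, -0.031 over ganglion cell genes, 0.049 over photoreceptor genes and 0.050 over bipolar genes, of which Grik1 is itself a member. Over 6 endothelial genes it was 0.15, with list means per array from -0.076 to 0.29 among knockout and -0.16 to -0.026 among wild-type arrays, as deviations from each gene's mean. Of the 6, 2 had an unadjusted p under 0.05 in limma. They were Cdh5 (0.54, mean signal 7.51) and Emcn (0.50, mean signal 6.32, not above background). The brightest, Kdr (mean signal 11.86) and Cldn5 (10.50), differed by -0.070 (SE 0.083) and 0.077 (SE 0.11). Pecam1 and Tek differed by 0.14 and 0.16. Over 8 lens genes it was 0.075, with -0.031 to 0.12 against -0.11 to 0.024, and over 5 microglia genes 0.085, with -0.095 to 0.22 against -0.15 to -0.028. The median was 0.053 over 6 pigment epithelium genes and 0.046 over 3 astrocyte genes. By the same unadjusted measure 1 lens, 2 microglia, 1 astrocyte (Pdgfra) and 1 pigment epithelium gene (Tyr) were higher in the knockout. That measure called 3.43% of all tested clusters. Tyr, at a mean of 5.85, was not above background. The block called 8.81% of all tested clusters. With it the counts were 3 endothelial, 2 lens, 2 microglia, 1 astrocyte and 1 pigment epithelium gene, all higher. The block also called 1 bipolar and 1 liver gene as higher and 1 gene each of the amacrine and horizontal, photoreceptor, and Muller glia and progenitor lists as lower, lists with 0 calls in the unblocked limma fit. Their part in the subunit values was not tested.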

How the data were processed

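Signal was measured on Affymetrix whole-transcript arrays, 1 per sample, in 3 knockout and 3 wild-type retina samples. The authors deposited a log2 signal for each transcript cluster, made, per the submitters' processing notes, with Affymetrix Expression Console, RMA and Transcriptome Analysis Console, with no version named. RMA gives every array 1 distribution, which would hide a change common to most transcripts. Of 35557 clusters, the platform annotation named 1 gene for 21789 and several for 1621, and these 23410 were tested. All 45 members matched the GRCm38.p6 gene table by identifier. Genotypes were compared in limma 3.58.1 in R 4.3.3 (lmFit, eBayes), Benjamini-Hochberg adjusted over the tested clusters at 0.05, with no filter, and the script was tested on simulated data. Promoter windows and figures used pandas 2.3.3 and matplotlib 3.10.9.

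The labels give replicates 1 to 3 in both genotypes without saying what a number marks. Same-numbered arrays shared deviations from their group means (correlations 0.476, 0.485 and 0.455), and all clusters were therefore also fitted with replicate number as a block. The labels call samples biological replicates. The members, gene lists and tests were chosen with earlier results of these data known. Given with each array's value were the 2 brightest members of each receptor family and any member with an unadjusted p under 0.05, with or without the block, or with groups that did not overlap; of the partners, the 2 brightest per list. Gabra5, Gria1, Gad1 and Slc17a7 were added after their values were seen. A planned comparison of subunit proteins was not run. Alternatives were median centring, cyclic loess, variance trend, robust variance, array weights, 2 signal filters, every row of the table, the block, each array left out, both replicate 2 arrays left out, the mean of a gene's clusters, and other background levels.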

Additional observations from a re-analysis of the deposited data

How the results depend on the processing

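In all 17 alternatives 0 members and 0 partner genes passed correction (limma, lowest adjusted p per fit from 0.514 with the replicate block to 1), and the median difference of the members kept its sign, from -0.043 to -0.021. The count of members at an unadjusted p under 0.05, 1 as reported, was 2 with cyclic loess, 2 with array weights, 2 without both replicate 2 arrays and 3 with the replicate block; with each array left out it ran from 0 to 2. The partner count, 0 as reported, was 2 with cyclic loess, 2 with the variance trend, 1 with the filter at the median and 7 with the replicate block, and ran from 0 to 2 with each array left out. The number of members above background was 23 with the median of tested clusters as the level. Leaving out 1 array turned the sign of 5 to 9 members, none with a reported difference over 0.0704 in size. The cause of these shifts was not tested. The 3 arrays per genotype limit what can be seen, and signal near background limits it further for the 10 dim members.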
